A study of Mus musculus with 18 samples.

Results

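The genes examined here encode voltage-gated and potassium ion channels. A gene was a member when its symbol was that of a potassium channel subunit (Kcn followed by a family letter and a number), a voltage-gated sodium channel pore or beta subunit (Scn), a voltage-gated calcium channel alpha-1 or beta subunit (Cacna1 and Cacnb) or a hyperpolarization-activated cation channel (Hcn). The rule used names only, and no measured value. It took 124 genes, all protein-coding, of 55385 genes in the expression tables. After the filter on low counts, 102 of the 124 were tested at postnatal day 21 (P21) and 100 at embryonic day 16.5 (E16.5).

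The study compared hippocampus from wild-type (WT) C57BL/6 mice with hippocampus from C57BL/6 mice carrying an Arid1a conditional knockout (cKO). Arid1a is the large ARID-domain subunit of canonical BAF, a complex that uses ATP to move nucleosomes. Polyadenylated RNA was sequenced from 2 WT and 2 cKO libraries at P21 and from 3 WT and 3 cKO libraries at E16.5, which the study describes as biological replicates. Chromatin immunoprecipitation (ChIP-seq) of the histone marks H3K4me3, H3K27ac and H3K27me3 was done at 3 weeks of age with 1 library for each mark and genotype and no replicate. The labels name neither the Cre driver, and so the cells that lost Arid1a, nor the number of mice behind a library.

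Voltage-gated sodium channels carry the rising phase of the action potential, voltage-gated calcium channels couple depolarization to calcium entry and transmitter release, and potassium channels repolarize the membrane, set its resting level and limit repetitive firing. Most pores need partners: silent subunits (Kcnf, Kcng, Kcns and Kcnv) form no channel alone and alter Kcnb channels, and beta subunits and interacting proteins (Kcnab, Kcne, Kcnip, Scn beta, Cacnb) change gating and delivery to the membrane. In the hippocampus these genes are switched on largely as neurons mature, and glia carry their own set, led by inward rectifiers that buffer extracellular potassium. H3K4me3 marks active or poised promoters, H3K27ac marks active promoters and enhancers, and H3K27me3 is laid down by the Polycomb repressive complex 2 at repressed or poised genes.

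The P21 libraries summed to between 20089631 and 20332148 estimated counts, those from E16.5 to between 17662335 and 19760764. Arid1a itself stood at 215 and 205 CPM (counts scaled to library size) in the WT P21 libraries and 110 and 89.2 in the cKO libraries (log2 -1.08, SE 0.13, edgeR adjusted p = 0.00507). The E16.5 libraries had 262, 282 and 285 CPM in WT and 180, 175 and 176 in cKO (log2 -0.64, SE 0.06, edgeR adjusted p = 0.032), a call that was lost when any 1 library was left out. The groups did not overlap at either age, and much Arid1a RNA was left in cKO tissue. Markers of other cells moved with genotype at P21. All 10 oligodendrocyte genes listed passed the test as lower (summed CPM 7386 and 8003 in WT, 4648 and 4272 in cKO), as did 5 of 8 dentate granule neuron genes (492 and 522, then 252 and 257) and 5 of 8 microglial genes (243 and 221, then 132 and 138). None of these 3 lists had a gene at 0 in any P21 library. Of 8 CA pyramidal neuron genes 4 passed as higher, and of 8 radial glia and progenitor genes 4 passed as higher and 1 as lower. Astrocyte genes gave 1 higher and 3 lower of 9, endothelial genes 2 and 1 of 6 and thalamic genes 1 and 0 of 5, with the thalamic gene Gbx2 at 0 in a library. No gene passed among 8 interneuron, 7 mural and 8 choroid plexus genes. At E16.5 no gene of any of the 13 lists passed. All 8 microglial genes lay below WT in every cKO library (summed CPM 134, 67.4 and 76.3 in WT, 32.5, 41.6 and 48.2 in cKO), as did 4 of 9 astrocyte genes (814, 597 and 559, then 222, 361 and 425), 5 of 6 endothelial and 4 of 7 mural genes, against 15.3% of all genes. Of 10 striatal projection neuron genes, 3 passed as higher at P21 (162 and 185 in WT, 242 and 345 in cKO). Choroid plexus genes summed to 3632 CPM in cKO replicate 1 at P21 and to 1038 to 1426 in the other 3 libraries. At E16.5 they summed to 4874 and 3265 in WT replicates 1 and 2 and 2522 in cKO replicate 3, against 2.64 to 42.2 in the other 3. The neuronal list held 5131 and 5563 CPM in WT and 5005 and 5230 in cKO at P21, with 1 of 8 genes past the test, lower.

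At P21, 7 channel genes fell and 1 rose in cKO hippocampus out of the 102 tested (edgeR quasi-likelihood test, adjusted p below 0.05 over all 17407 genes). Kcnc4, Cacna1g, Kcnj16, Kcna6, Kcng4 and Kcnh1 were among the lower genes, and the higher one was Kcnt1. The share called was 7.84% of the tested channel genes against 6.72% of all genes, so the number of calls was near the background. Split by direction, 6.86% of the channel genes were lower, against 3.91% of all genes, and 0.98% were higher, against 2.81%. At an unadjusted p below 0.05, 27 were lower (26.5%, against 13.2% of all genes) and 8 higher (7.84%, against 11.7%). The median log2 change of the 102 was -0.14, and that of all genes tested was 0.01. In 42 of the 102 both cKO libraries lay below both WT libraries (41.2%, against 27.9% of all genes), and in 17 both lay above (16.7%, against 28.2%).

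Kcnc4, Kcna6 and Kcnh1 encode pores of voltage-gated potassium channels. Gene positions are RefSeq spans on GRCm38.p6. Kcnc4 (ENSMUSG00000027895.10, chr3:107438298-107460287), which encodes the fast-activating Kv3.4 pore, was at 60.5 and 60.5 CPM in WT and 31.6 and 29 in cKO. The libraries of each genotype lay close together and the genotypes far apart, and the log2 change was -0.999 (SE 0.11, edgeR adjusted p = 0.00371). Kcna6 (ENSMUSG00000038077.7, chr6:126708328-126740834), a Kv1 delayed rectifier pore, was at 66.7 and 61.7 CPM in WT and 39.6 and 32.5 in cKO (log2 -0.83, SE 0.13, edgeR adjusted p = 0.012). Kcnh1 (ENSMUSG00000058248.12, chr1:192189144-192510159), the ether-à-go-go pore Kv10.1, was at 72.5 and 77.8 CPM in WT and 51.6 and 39.1 in cKO (log2 -0.73, SE 0.14, edgeR adjusted p = 0.0275). The cKO libraries of Kcnh1 lay further apart than its WT libraries and below both of them.

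Kcng4, Cacna1g and Kcnj16 belong to 3 further classes. Kcng4 (ENSMUSG00000045246.11, chr8:119623854-119635680), a silent subunit that has no channel activity alone, was at 11.1 and 10.2 CPM in WT and 4 and 5.37 in cKO (log2 -1.18, SE 0.21, edgeR adjusted p = 0.0202). Cacna1g (ENSMUSG00000020866.17, chr11:94408391-94474400), the low-threshold T-type calcium channel Cav3.1, was at 68.1 and 59.6 CPM in WT and 32.3 and 34.5 in cKO (log2 -0.94, SE 0.12, edgeR adjusted p = 0.00627). Kcnj16 (ENSMUSG00000051497.15, chr11:110968033-111027968), the Kir5.1 inward rectifier that joins Kir4.1 in glial channels, had the largest change among the 8 called. It was at 15.2 and 16.3 CPM in WT and 2.6 and 4.66 in cKO (log2 -2.12, SE 0.27, edgeR adjusted p = 0.00704). In bulk tissue, fewer cells of a type and less RNA per cell cannot be told apart. Kcnj10, which encodes Kir4.1 itself, was at 227 and 238 CPM in WT and 174 and 195 in cKO and did not pass (log2 -0.33, edgeR adjusted p = 0.112). The fall of oligodendrocyte genes given above moved with Kcnj16, and its part in that gene's value was not tested.

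Kcnt1 (ENSMUSG00000058740.14, chr2:25863791-25918273), the sodium-activated potassium channel Slack, was the single channel gene that rose at P21. It was at 35.2 and 43.2 CPM in WT and 62 and 55.4 in cKO (log2 0.58, SE 0.13, edgeR adjusted p = 0.0418). Just past the threshold on the other side stood Scn4b, a sodium channel beta subunit, at 27.5 and 36.2 CPM in WT and 51.1 and 45.7 in cKO (log2 0.60, edgeR adjusted p = 0.0547). Its WT and cKO libraries did not overlap, as in 56.1% of all genes tested at P21. The striatal marker genes given above were also higher in cKO, and their part in the Scn4b value was not tested.

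**Figure D1:**
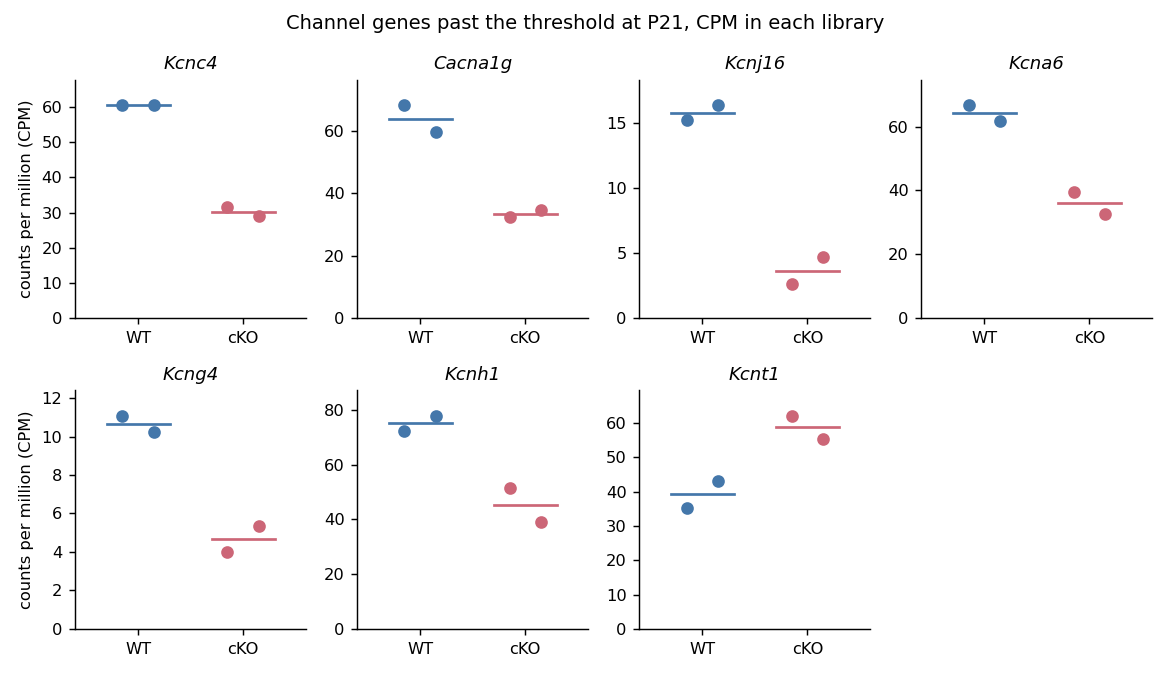
CPM in each P21 library (points) and the group mean (lines) for 7 channel genes past the edgeR threshold, 2 WT and 2 cKO libraries, each panel from 0. In all 7 the groups stay apart, with Kcnt1 alone higher in cKO and Kcnj16 showing the largest relative drop.

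The calls rested on few libraries. Without cKO replicate 1, the library rich in choroid plexus RNA, 18 channel genes were lower and 8 higher, while the calls over all genes went from 680 lower and 489 higher to 1627 and 1244. Without cKO replicate 2 there were 12 and 3 (all genes 943 and 729), without WT replicate 2 there were 4 and 0 (293 and 138), and without WT replicate 1 there were 5 and 0 (394 and 249). The counts over all genes moved the same way as those of the channel genes in each of these fits. Kcnj16 and Cacna1g passed in all 10 alternatives run at P21, Kcnc4 and Kcna6 in 9, Kcnh1 in 8, Kcng4 in 7 and Kcnt1 in 6. Kcnt1 lost its call without either WT library, with replicate number as a block and in 1 fit of all 10 libraries. That 10-library fit also lost Kcnc4, Kcna6, Kcng4 and Kcnh1 (edgeR adjusted p = 0.273, 0.143, 0.157 and 0.42). Only Kcnj16 and Cacna1g of the genes named here kept their calls in it. Kcng4 lost its call without either WT library too, and Kcnh1 without WT replicate 2. The direction of each of the 7 named genes was the same in all 10 alternatives. DESeq2 called 9 lower (8.82%, against 4.76% of all genes) and 3 higher (2.94%, against 2.88%). The authors' deposited table of the same comparison called 9 channel genes lower and 3 higher, of 841 and 485 genes in all. The 8 that edgeR called were all among them, and those added by the authors' deposited table included Kcng1, Cacna1h and Scn4b.

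By family, most P21 log2 changes were negative among inward rectifiers, Kv3 and Kv1 pores and calcium channel pores, and most were positive among sodium channel pores. Families were not tested against each other. Of 12 tested inward rectifiers (Kcnj), 11 had a negative log2 change, with a median of -0.33. Besides Kcnj16 these included Kcnj6, the GIRK2 subunit opened by G proteins, at 36.2 and 44.5 CPM in WT and 32.4 and 23.7 in cKO (log2 -0.52, edgeR adjusted p = 0.123). All 4 Kv3 genes (Kcnc) were negative (median -0.23), as were both Kv2 genes (Kcnb), all 3 tested small-conductance calcium-activated channels (Kcnn, median -0.36) and 4 of 5 tested Kv1 genes (Kcna, median -0.54). Among Kv1 genes, Kcna1 was at 28.2 and 48.2 CPM in WT and 25.4 and 11.9 in cKO, a wide spread within each genotype (log2 -1.03, edgeR adjusted p = 0.344). Kcna4, an A-type pore, was at 26.1 and 31.7 CPM in WT and 21.5 and 18.2 in cKO (log2 -0.54, edgeR adjusted p = 0.0719).

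Calcium channel pores had negative log2 changes in 7 of 8 tested genes (median -0.24). The T-type gene Cacna1h was at 192 and 161 CPM in WT and 106 and 137 in cKO (log2 -0.54, edgeR adjusted p = 0.0766). Cacna1c, the L-type pore Cav1.2, was at 154 and 145 CPM in WT and 127 and 108 in cKO (log2 -0.35, edgeR adjusted p = 0.114), and Cacna1b, the N-type pore, at 144, 146, 154 and 146 in the 4 libraries (log2 0.05). Their beta subunits (Cacnb) were split, 2 positive and 2 negative, with Cacnb2 the highest in log2 change at 0.38 (edgeR adjusted p = 0.163). Of the 7 tested sodium channel pores 6 were positive (median 0.30) and none passed, while at E16.5 the median of 6 tested was -0.09. Scn8a and Scn2a are the main pores of excitatory neurons. Scn8a was at 392 and 425 CPM in WT and 367 and 342 in cKO (log2 -0.21, edgeR adjusted p = 0.281), and Scn2a at 197 and 234, then 229 and 221 (log2 0.06, edgeR adjusted p = 0.784).

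The remaining families had changes of both signs. The cation channels Hcn2 and Hcn4 had log2 changes of 0.18 and 0.01, and Hcn3, at 11 and 9.53 CPM in WT and 5.83 and 7.17 in cKO, had -0.66 (edgeR adjusted p = 0.0856). Of 10 tested two-pore leak channels (Kcnk), 7 were negative. Kcnk13 was at 3.71 and 3.66 CPM in WT and 2.46 and 1.76 in cKO (log2 -0.80, edgeR adjusted p = 0.136). Accessory subunits (Kcnab, Kcne and Kcnip) had 6 positive and 3 negative changes. Kcnip3, a calcium-binding partner of the A-type Kv4 pores also known as DREAM, was at 42.1 and 55.3 CPM in WT and 27 and 38.7 in cKO (log2 -0.57, edgeR adjusted p = 0.161). Its partner pore Kcnd2 was at 135 and 153 CPM in WT and 111 and 118 in cKO (log2 -0.34, edgeR adjusted p = 0.115).

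**Figure D2:**
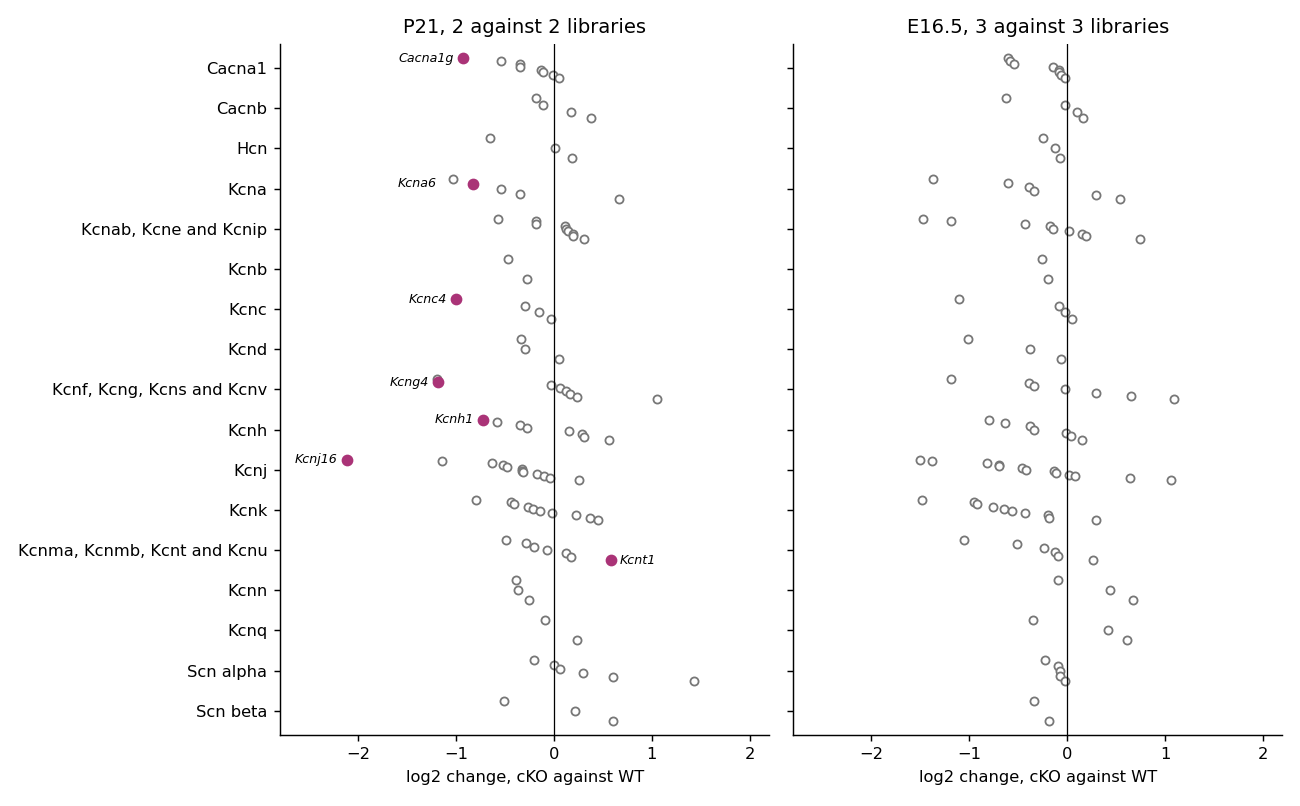
Log2 change of cKO against WT for tested channel genes by family, at P21 (left) and E16.5 (right), without those not reported here. Filled points passed the edgeR threshold and are named; open points did not, and no point passed at E16.5.

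At E16.5, edgeR called 0 of the 100 tested channel genes, at a background of 0.124% of 16958 genes, so few genes of any kind were called at this age. At an unadjusted p below 0.05, edgeR gave 17 lower (17%, against 11.5% of all genes) and 6 higher (6%, against 9.13%). In 19 every cKO library lay below every WT library (19%, against 15.3% of all genes), and in 7 every one lay above (7%, against 14%). DESeq2, run as an alternative, called 7 lower (against 4.31% of all genes) and 4 higher (against 2.43%). The median log2 change was -0.18, and that of all genes tested was -0.01. The authors' deposited table likewise listed 7 lower and 4 higher, of 714 and 352 genes in all. Among the lower were Kcnip3, Cacna1d, Kcna4, Cacna1g, Kcnd3 and Kcnd2, and the higher were Kcnq3, Kcnn2, Kcng1 and Kcnn1. The common biological coefficient of variation that edgeR estimated was 0.146 at P21 and 0.25 at E16.5. The 2 sets of E16.5 libraries with high and low choroid plexus RNA cut across genotype, and their part in this spread was not tested.

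Kcnq3, a pore of the M current that damps repetitive firing, came closest at E16.5. It was at 84.1, 91.6 and 99.3 CPM in WT and 132, 152 and 135 in cKO (log2 0.61, SE 0.09, edgeR adjusted p = 0.0885). All 3 cKO libraries lay above all 3 WT libraries. At P21 the same gene was at 176 and 200 CPM in WT and 166 and 186 in cKO, and the groups overlapped. Kcnn2, a small-conductance calcium-activated potassium channel of the afterhyperpolarization, was at 32.5, 34.6 and 39.6 CPM in WT and 54, 67.2 and 48.7 in cKO at E16.5 (log2 0.67, SE 0.14, edgeR adjusted p = 0.138). Its groups also stayed apart.

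On the lower side, Cacna1d, the L-type pore Cav1.3, was at 49, 55.5 and 53.6 CPM in WT and 31.2, 35.1 and 38.9 in cKO (log2 -0.59, SE 0.10, edgeR adjusted p = 0.117). Kcnip3 was at 50.7, 52.2 and 61.4 CPM in WT and 16.9, 24.9 and 30.2 in cKO (log2 -1.19, SE 0.22, edgeR adjusted p = 0.131). In both genes every cKO library lay below every WT library, and neither passed the edgeR test. Kcnj16 and Cacna1g, lower at P21, had negative log2 changes at E16.5 too: -1.51 (SE 0.41, edgeR adjusted p = 0.163) and -0.60 (SE 0.18, edgeR adjusted p = 0.179). The lower astrocyte sums given above moved with Kcnj16, and their part in its E16.5 value was not tested. By family, the log2 change was negative in all 8 tested Cacna1 genes (median -0.12), all 3 Kcnd genes (-0.38) and 9 of 10 tested Kcnk genes (-0.61), and positive in 2 of 3 tested Kcnn genes (0.44). Kcne2 and Kcnj13, both genes of the choroid plexus epithelium, were high in the libraries rich in choroid plexus RNA, in either genotype. Kcne2 was at 47.7, 33 and 0.41 CPM in the WT libraries and 0.337, 0.679 and 28 in the cKO libraries.

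The cKO effect differed between the ages in 2 of 106 channel genes, Kcng1 and Kcnn1, both lower at P21 relative to E16.5 (1.89%, against 1.16% of 18979 genes, edgeR test of the difference in 1 fit of all 10 libraries). By direction, 2 were lower, against 0.738% of all genes, and 0 higher, against 0.427%. At an unadjusted p below 0.05 edgeR gave 8 lower (7.55%, against 10.5%) and 6 higher (5.66%, against 9.57%). Kcng1 (ENSMUSG00000074575.4, chr2:168260117-168281533), a silent subunit of Kv2 channels, was at 21.4, 29.7 and 31.8 CPM in WT and 46.4, 41.1 and 43.3 in cKO at E16.5. At P21 it was at 63.2 and 46.6 in WT and 30 and 17.9 in cKO. Every cKO library was above WT before birth and below it after, and the difference of the log2 changes was -1.89 (SE 0.34, edgeR adjusted p = 0.0446). The separate log2 changes were 0.66 (edgeR adjusted p = 0.145) at E16.5 and -1.19 (edgeR adjusted p = 0.0913) at P21.

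Kcnn1 (ENSMUSG00000002908.17, chr8:70843158-70865691), another small-conductance calcium-activated channel, was at 29.5, 31.6 and 37.4 CPM in WT and 43.4, 44.6 and 45.8 in cKO at E16.5. At P21 it was at 14.1 and 13.8 in WT and 10.3 and 11 in cKO. It showed the same crossing of the groups, with a difference of -0.86 (SE 0.16, edgeR adjusted p = 0.0446). Kcnq3 and Kcnn2 followed with differences of -0.74 (edgeR adjusted p = 0.058) and -0.96 (edgeR adjusted p = 0.0737) and did not pass. Kcng1 and Kcnn1 each passed in 5 of 16 alternatives. Both lost the call under upper-quartile scaling and when certain single libraries were left out. At P21 these were WT replicates 1 and 2 and cKO replicate 2. At E16.5 they were replicates 1 and 2 of either genotype. Both also lost it without the E16.5 libraries rich in choroid plexus RNA, an alternative chosen after seeing the data. That fit kept only WT replicate 3 against cKO replicates 1 and 2 at E16.5. Their Xist counts were 7 against 6491 and 8071, so genotype and sex cannot be told apart there. The difference of each gene stayed negative in all 16 alternatives. Neither Kcng1 nor Kcnn1 passed the edgeR threshold at either age taken alone.

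**Figure D3:**
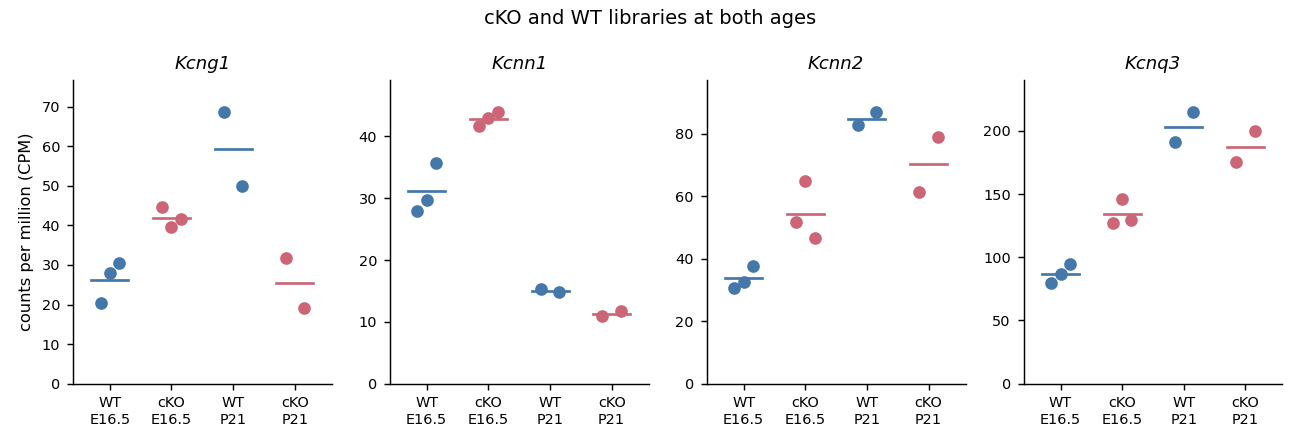
CPM in each library (points) and group mean (lines) on the common scaling of all 10 libraries, each panel from 0, for Kcng1, Kcnn1, Kcnn2 and Kcnq3 at both ages. All 4 genes have cKO above WT at E16.5, and at P21 the cKO mean is below the WT mean in each.

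In WT hippocampus most channel genes rose between E16.5 and P21. Of 106 tested, 66 were higher at P21 (62.3%, against 27.8% of all genes) and 15 lower (14.2%, against 32.6%) by edgeR, together 76.4%, against 60.4%. The median log2 difference was 1.28, against -0.12 for all genes. The ages come from separate count tables, so age and table cannot be told apart. In the voltage-gated potassium family, all 4 Kcnc genes, both Kcnb genes, 4 of 6 Kcna genes and 8 of 9 tested silent subunits were higher. Kcng4 was at 0.15, 0.194 and 0.0489 CPM in the E16.5 libraries, from 3, 4 and 1 counted reads, and at 12 and 11 at P21. Kcna1, the Kv1.1 pore of axons, was at 0.648, 0.291 and 0.685 CPM at E16.5 and 30.6 and 51.7 at P21 (log2 6.23, SE 0.44, edgeR adjusted p = 4.27e-06). Kcnh1 stood at 3.64, 5.72 and 2.59 CPM and then at 78.6 and 83.4 (log2 4.34, SE 0.45, edgeR adjusted p = 6.09e-05).

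Among sodium channel beta subunits Scn4b rose from 0.343 to 0.824 CPM at E16.5 to 29.8 and 38.8 at P21 (log2 5.70, SE 0.36, edgeR adjusted p = 2.54e-06). Scn2b had a log2 difference of 4.33 (edgeR adjusted p = 3.98e-07). Of the 7 tested sodium pores 4 rose and 1, Scn9a, fell. Among inward rectifiers, 6 of 13 rose and 2 fell. Kcnj6 had a log2 difference of 5.33 (edgeR adjusted p = 1.26e-06), Kcnj4 of 4.60 (edgeR adjusted p = 1.35e-07), and glial Kcnj10 of 3.24 (edgeR adjusted p = 1.03e-06). The Kv beta subunits Kcnab1 and Kcnab2 rose by log2 4.53 and 4.31 (edgeR adjusted p = 2.42e-06 and 1.31e-07).

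The genes that fell with age included pacemaker channels, and Hcn4 fell furthest. Hcn4 was at 53, 60.7 and 57.4 CPM at E16.5 and 3.48 and 3.28 at P21 (log2 -4.07, SE 0.20, edgeR adjusted p = 5.19e-07). Hcn3 was at 71.2, 80.8 and 85.4 and then 12 and 10.2 (log2 -2.84, SE 0.14, edgeR adjusted p = 5.15e-07). Hcn2, of the same family, rose by log2 1.24 (edgeR adjusted p = 0.000371). Close to Hcn3 in size were Kcnj5, the GIRK4 subunit best known from heart (log2 -2.98, edgeR adjusted p = 0.000646), Kcnq1 (-2.81, 0.000787) and Kcnh8 (-2.65, 0.00019), all under 1 CPM in both P21 libraries. Reads of Kcnq1 and of its antisense transcript Kcnq1ot1 cannot be told apart where the use of strand in counting is not stated. Scn9a, Kcnk5, Kcnh4, Kcnk10, Kcnj8, Kcnu1, Kcnn1, Cacnb3 and Kcnk2 also fell, from log2 -2.28 for Scn9a to -0.90 for Kcnk2.

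The genotype effect at P21 and the WT age difference share the WT P21 libraries, so no relation between them is given. Set side by side, Kcng4, Kcnh1, Kcnj16, Kcnc4 and Kcna6, lower in P21 cKO hippocampus, had WT age differences of log2 6.39, 4.34, 3.54, 2.995 and 1.14, all past the edgeR threshold. Cacna1g, with -0.45 (edgeR adjusted p = 0.0547), did not pass. Of all 106 tested channel genes, 62.3% were higher at P21 past that threshold. Kcnt1, higher in cKO, had 1.31 (edgeR adjusted p = 0.0501).

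**Figure D4:**
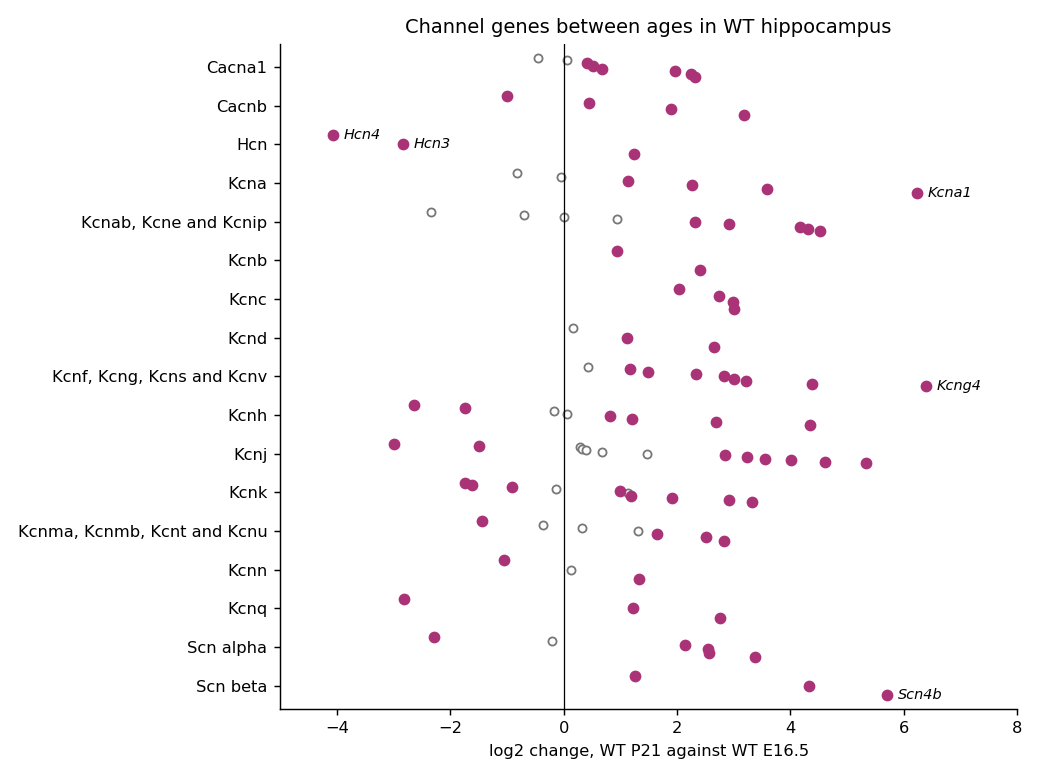
Log2 difference of WT P21 against WT E16.5 for tested channel genes by family, without those not reported here. Filled points passed the edgeR threshold and open points did not; Hcn3 and Hcn4 lie far to the left of 0, and Kcna1, Kcng4 and Scn4b far to the right.

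In the peak lists, H3K27me3 was listed at many more channel genes in cKO than in WT hippocampus, while H3K4me3 was listed at nearly as many. A peak was counted when it overlapped by at least 1 bp the 2 kb on either side of a RefSeq start site, known for 90 of the 124 genes, or otherwise the gene with 1 kb on either side, for the other 34. H3K27me3 peaks lay at 9 of the 124 genes in WT (7.26%, against 4.16% of 21123 protein-coding genes) and at 74 in cKO (59.7%, against 15.1%). At 65 genes a peak was listed in cKO and none in WT (52.4%, against 11%), and at 0 genes the reverse (against 0.0142%). Among the 90 genes with start sites the numbers were 6 in WT, 52 in cKO and 46 in cKO only (51.1%, against 10%). Each mark had 1 library per genotype, so these counts have no replicate check and no test. A peak missing from a list does not show that the mark was missing.

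The cKO H3K27me3 list was longer for the whole genome, with 15659 peaks over 13035.8 kb against 4124 peaks over 2860.2 kb in WT, from 17399169 and 18009991 ChIP tags. When the cKO list was cut to its 4124 peaks of lowest q-value, the same number as in WT, 36 channel genes had a cKO peak (29%, against 8.33% of all genes) and 27 had one in cKO only (21.8%, against 4.28%). The higher share of channel genes was also seen within classes of like genes. Of genes with an H3K4me3 peak in both genotypes, 59.8% of 97 channel genes and 13.3% of 13077 other genes had an H3K27me3 peak in cKO only. Of genes with at least 10 CPM in WT at P21, the shares were 57.9% of 76 and 9.56% of 9502. With an H3K4me3 peak in both genotypes and under 10 CPM, they were 64% of 25 and 22.2% of 3906. Of start sites with at least 16 CpG in the gene's richest 300-base window, the median over channel genes with 1 value per gene, they were 63% of 46 and 11.5% of 8213.

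The active marks differed less in number between the genotypes. H3K4me3 peaks lay at 98 channel genes in WT and 99 in cKO (79% and 79.8%, against 62.8% and 64.5% of all genes), and 2 genes had one in cKO only (1.61%, against 2.18%) and 1 in WT only (0.806%, against 0.431%). H3K27ac peaks lay at 49 in WT and 67 in cKO (39.5% and 54%, against 34.8% and 50.1%), with 20 in cKO only (16.1%, against 16% of all genes), a share like the background. The cKO H3K27ac list was longer, with 24065 peaks against 13006 in WT. Cut to 13006, it had peaks at 52 channel genes (41.9%, against 41.2% of all genes), and at 10 in cKO only (8.06%, against 9.6%). Of the 65 genes with an H3K27me3 peak in cKO only, 58 had an H3K4me3 peak in both genotypes. Over all genes this held for 1803 of 2323. H3K27ac peaks lay at 26 of the 65 in WT and 40 in cKO, with no such count made over all genes. H3K4me3 and H3K27me3 peaks at the same gene were listed for 9 channel genes in WT and 67 in cKO (7.26% and 54%, against 2.43% and 12.2%). They were listed together in cKO only at 58 genes (46.8%, against 9.84%) and in WT only at 0 (against 0.0805%). Of the 67 genes, 21 were counted over the whole gene. The 2 marks need not overlap or share a start site, and bulk tissue does not show whether they share a cell. Kcnc4 was 1 of 2 channel genes, with Kcnj2, whose H3K27ac peak was listed in WT and not in cKO (1.61%, against 0.691%). Its authors' fold enrichment in WT was 5.71.

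**Figure D5:**
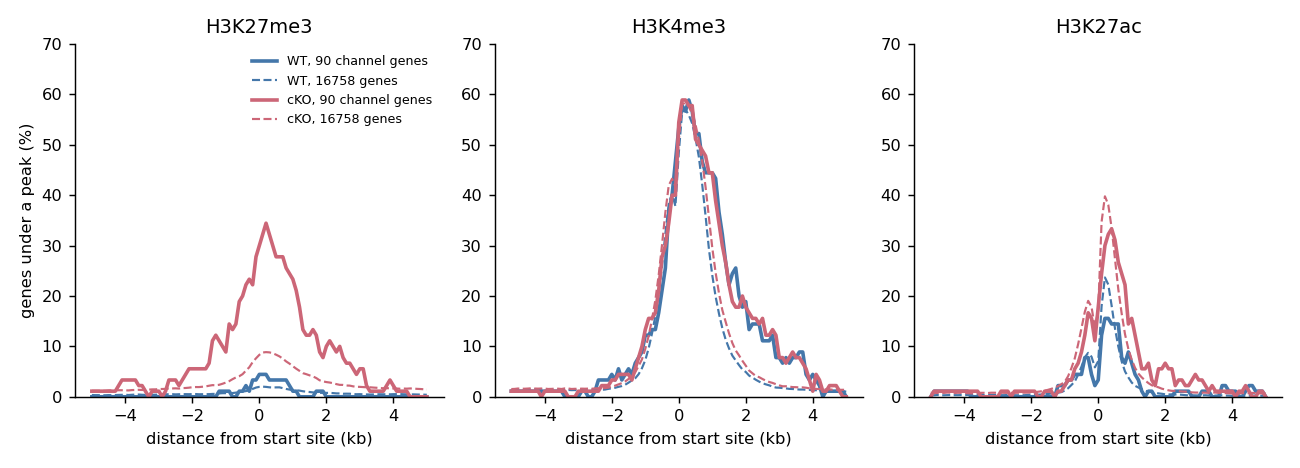
Share of genes whose position at each distance from the first start site lies under a listed peak, in 100 bp steps to 5 kb on either side, for 90 channel genes (solid) and 16758 genes with start sites (dashed), WT in blue and cKO in red. Under H3K27me3 the cKO channel genes reach 34.4% at 200 bp past the start against 8.86% of all genes, while WT channel genes reach 4.44%; the H3K4me3 lines of both genotypes nearly coincide.

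By family, H3K27me3 peaks in cKO only were listed at 8 of 10 silent subunits, 7 of 8 Kcnh genes, 7 of 10 Cacna1 genes, all 4 Kcnc genes and 9 of 14 Kcnk genes. The counts were 2 of 10 at sodium channel pores, 4 of 15 at Kcnj genes and 0 of 2 at Kcnb genes, beside the 11% of all genes. The 9 genes marked in both genotypes included Hcn4, Kcna7, Kcnip1, Kcnj5, Kcnj8, Kcnk9, Kcnn1 and Kcnq1. For the 9, the authors' fold enrichment had a median of 4.70 in WT and 9.61 in cKO. Of the 65 genes marked in cKO only, the fold was 2.83 to 11.2, with a median of 5.63, and the peaks covered a median of 980 bp of the window. The authors' fold describes each peak within its own list.

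The strongest of the cKO-only peaks by that fold was at Kcnh3, an ether-à-go-go-like potassium channel of the forebrain, with 11.2. Next came the silent subunits Kcng3 (9.92) and Kcng1 (9.77), the T-type calcium channel Cacna1i (9.02), the N-type Cacna1b (8.83) and Scn4b (8.42). Kcne3, Kcnh8, Kcnk5, Cacna1g, Kcna5, Kcnip3 and Kcnc2 followed, from 8.12 down to 7.27. Kcnh3, Kcng1 and Cacna1g were counted over the whole gene, so their peaks need not lie at a start site. Of the genes named here only Cacna1g passed the P21 RNA test. Kcnh3 was at 82.1 and 71.9 CPM in WT and 81.8 and 106 in cKO, and Cacna1i at 64.7 and 67.7 and then 60.7 and 71. Kcnc2, a Kv3 pore of fast-spiking interneurons, was at 82 and 93.6 CPM in WT and 80.1 and 91.2 in cKO. Kcng3 was at 0.0501 to 0.201 CPM in all 4 P21 libraries and was not tested.

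The P21 RNA changes of channel genes with and without a cKO-only peak had medians close to each other. The 59 tested genes with an H3K27me3 peak in cKO only had a median log2 change of -0.15, with 40 negative and 19 positive. The 37 tested genes with a peak in neither genotype had a median of -0.19, with 22 negative and 15 positive, and the 6 tested genes with a peak in both had 0.24. By the edgeR test, 6 of the 59 were lower and 1 higher, against 1 and 0 of the 37 and 0 and 0 of the 6. Over all 102 tested channel genes, 7 were lower and 1 higher. Of the called genes, Kcnc4, Cacna1g, Kcna6, Kcng4 and Kcnh1, all lower, and Kcnt1, which was higher, had an H3K27me3 peak in cKO only. For Cacna1g and Kcnt1 the window was the whole gene, so the peak need not lie at a start site. Kcnj16, with the largest fall, had no peak of any of the 3 marks at its 4 start sites in either genotype. No test of the medians was run, since genes are not replicates.

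Start-site sequences are shown for 5 genes that stand for these classes. They were taken from RefSeq (GRCm38.p6) and run from 250 bases before the start site to 50 bases after it, 5′ to 3′ on the strand of the gene. Kcnc4, which fell in RNA, Cacna1b and Scn4b were each covered over all 300 bases by a cKO H3K27me3 peak and by none in WT. Kcnj8 was covered over 262 bases in WT and 239 in cKO, and the third of 4 windows of Kcnj16 by no peak of any mark. The windows lie at chr3:107458849-107459148 (Kcnc4, minus strand), chr2:24763103-24763402 (Cacna1b, minus), chr9:45138374-45138673 (Scn4b, plus), chr6:142571565-142571864 (Kcnj8, minus) and chr11:111019335-111019634 (Kcnj16, plus). Capitals mark a match, on either strand, to 1 of 8 motifs. These were the TATA box TATAAA, the GC box GGGCGG, the E-box CAGCTG, the cAMP response element TGACGTCA, the AP-1 site TGANTCA, the left part TTCAGCACC and the right part GGACAGC of the REST-bound RE1 element, and the EGR site GCGTGGGCG.
Kcnc4: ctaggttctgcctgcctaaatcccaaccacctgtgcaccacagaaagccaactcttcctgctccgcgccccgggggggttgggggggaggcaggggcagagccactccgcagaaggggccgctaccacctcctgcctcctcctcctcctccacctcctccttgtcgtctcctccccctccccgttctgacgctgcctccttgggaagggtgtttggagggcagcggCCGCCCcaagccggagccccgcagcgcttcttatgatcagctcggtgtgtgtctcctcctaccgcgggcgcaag
Cacna1b: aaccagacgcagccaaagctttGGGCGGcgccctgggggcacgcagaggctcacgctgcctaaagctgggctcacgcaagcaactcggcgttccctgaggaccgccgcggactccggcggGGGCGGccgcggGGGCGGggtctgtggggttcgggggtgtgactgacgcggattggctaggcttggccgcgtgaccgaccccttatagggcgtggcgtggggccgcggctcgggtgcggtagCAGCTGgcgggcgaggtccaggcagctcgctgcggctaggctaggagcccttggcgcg
Scn4b: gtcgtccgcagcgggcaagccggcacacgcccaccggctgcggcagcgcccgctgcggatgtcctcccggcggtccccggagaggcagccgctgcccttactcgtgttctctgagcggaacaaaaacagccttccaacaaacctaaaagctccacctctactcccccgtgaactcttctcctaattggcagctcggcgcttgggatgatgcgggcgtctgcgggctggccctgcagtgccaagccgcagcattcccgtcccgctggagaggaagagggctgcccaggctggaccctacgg
Kcnj8: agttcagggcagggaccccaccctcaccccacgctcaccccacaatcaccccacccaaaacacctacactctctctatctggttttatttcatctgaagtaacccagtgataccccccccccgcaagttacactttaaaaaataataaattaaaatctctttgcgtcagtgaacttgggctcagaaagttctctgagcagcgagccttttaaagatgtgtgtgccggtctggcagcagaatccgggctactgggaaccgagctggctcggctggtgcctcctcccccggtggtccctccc
Kcnj16: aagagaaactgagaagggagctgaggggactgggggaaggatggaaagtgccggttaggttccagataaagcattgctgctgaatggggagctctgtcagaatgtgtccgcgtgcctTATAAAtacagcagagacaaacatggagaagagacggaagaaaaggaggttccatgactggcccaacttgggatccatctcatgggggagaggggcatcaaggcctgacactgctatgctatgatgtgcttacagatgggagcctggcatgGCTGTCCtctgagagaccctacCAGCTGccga

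The first 3 of the printed windows held more CpG than the other two. The Kcnc4, Cacna1b and Scn4b windows held 17, 35 and 26 CpG, the Kcnj8 window 9 and the Kcnj16 window 5. With every window counted, the median over all 125 windows of the 90 channel genes was 9 CpG and 58% G or C. It was 7 and 52.7% for all 32851 windows, from 27025 gene symbols. Those were not limited to protein-coding genes, as the channel genes are, so gene type and channel membership cannot be told apart in the shares below. The GC box matched 45.6% of channel gene windows and 35.7% of all windows, and the E-box 25.6% and 16.3%. TATAAA matched 5.6%, against 13.6%, with Kcnj16 among its 7 genes, and TGANTCA matched 3.2%, against 7.81%. TGACGTCA matched 0 channel windows and 1.79% of all, GGACAGC 9.6% and 6.56%, TTCAGCACC 0.8% and 0.371%, and GCGTGGGCG 0.8% and 0.612%. The GC box and GCGTGGGCG can share letters. Windows of 1 gene overlap in part, and a match describes letters only.

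Partner genes of the channels, from a list of 56 outside the naming rule (calcium channel alpha-2-delta and gamma subunits, sodium channel partners, scaffolds of axon initial segments and nodes, Kv4 partners, KATP receptors, chloride and endolysosomal channels, and REST with its corepressors), were tested at 55 genes at P21. Of these 8 were lower and 1 higher by edgeR (the 6.72% of all genes called is the background), with a median log2 change of -0.13. Cntn2, a contactin that gathers Kv1 channels beside the node of Ranvier, was at 133 and 125 CPM in WT and 59.9 and 68.6 in cKO (log2 -1.01, SE 0.11, edgeR adjusted p = 0.00435). Nfasc, the neurofascin of nodes and initial segments, was at 492 and 489 CPM in WT and 324 and 353 in cKO (log2 -0.54, SE 0.10, edgeR adjusted p = 0.0268). Oligodendrocytes express both genes, and the part of the lower oligodendrocyte genes in these values was not tested. Cntnap2, the Caspr2 partner of Cntn2, went the other way, from 109 and 111 CPM in WT to 155 and 156 in cKO (log2 0.50, SE 0.10, edgeR adjusted p = 0.028).

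Other lower partners were Abcc8, the sulfonylurea receptor of KATP channels (log2 -0.61, edgeR adjusted p = 0.0186), Lrrc55, an auxiliary subunit of BK channels (log2 -1.11, edgeR adjusted p = 0.033), Cacng3, a transmembrane AMPA receptor regulator of the gamma family (log2 -0.56, edgeR adjusted p = 0.0318), the endolysosomal channel Tpcn1 (log2 -0.52, edgeR adjusted p = 0.037) and the sodium leak channel Nalcn (log2 -0.52, edgeR adjusted p = 0.0403). In each of these the groups did not overlap, as in 56.1% of all genes tested at P21. The last of the 8, Rcor2, a REST corepressor, was at 15.3 and 13.4 CPM in WT and 8.63 and 8.93 in cKO (log2 -0.71, edgeR adjusted p = 0.0418). Rest itself was at 5.36 and 4.76 CPM in WT and 6.65 and 4.26 in cKO (log2 0.11, edgeR adjusted p = 0.837). Without WT replicate 2 the lower count was 1, without WT replicate 1 it was 3 and without cKO replicate 1 it was 13. At E16.5, edgeR called 0 of 53 tested partner genes, with 11 lower and 4 higher at an unadjusted p below 0.05 (against 11.5% and 9.13% of all genes), and DESeq2 called 7 lower and 1 higher (against 4.31% and 2.43%).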

How the data were processed

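RNA-seq values were the estimated counts per gene that the authors deposited, made with Salmon 1.0.0 on GRCm38 per the submitters' processing notes. How transcripts were summed and whether strand was used are not given in the sources used here. The authors' deposited table of each comparison holds log2 fold changes, their mean level (a score) and p-values, from DESeq2 1.26.0 per the same notes. The ChIP-seq peak lists hold pileup signal, fold enrichment, a score and −log10 p and q, per the file headers. They came from MACS 2.2.7.1 at a q limit of 0.01, with an input of the same genotype, per the file headers, while the submitters' processing notes give MACS2 2.2.5 and Bowtie2 2.3.5.1.

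Estimated counts were rounded to whole numbers. Each age was filtered (filterByExpr), scaled (TMM) and fitted alone with edgeR 4.0.16 (robust quasi-likelihood test, Benjamini-Hochberg adjusted p below 0.05, R 4.3.3). All 10 libraries entered 1 fit for the difference between ages and the WT ages. CPM values use the TMM scaling of their own age, also where the cKO effect is compared between ages. The comparison of WT between ages and the figure of Kcng1, Kcnn1, Kcnn2 and Kcnq3 use 1 scaling of all 10 libraries. Standard errors were derived from the fold change and the F statistic. Fits were tested on simulated data. DESeq2 1.42.0, upper-quartile scaling, other filters, a replicate block and leaving out each library were alternatives. With 2 libraries a group at P21 and 3 at E16.5, precision rests on few samples. Peaks were counted in windows with Python 3.11.15, with RefSeq start sites on GRCm38.p6.

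The members, the 13 cell marker lists and the partner gene list were chosen with earlier results of these data known. Genes named were Arid1a, every member past a threshold, the lowest p of each family at either age, its most abundant member, the 15 strongest H3K27me3 peaks in cKO only, the 10 highest and 10 lowest between WT ages at 5 CPM or more, and 8 partner genes. Other genes named were chosen after their values were seen. Results of some members are not reported here, although counts and medians include them. Same-numbered WT and cKO libraries did not deviate together, so numbers were not treated as pairs.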

Additional observations from a re-analysis of the deposited data

Results flagged for a closer look

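For 2 channel genes the effect of the knockout differed between the ages by the edgeR test of the difference itself. For Kcng1 the log2 change at P21 minus that at E16.5 was -1.89 (edgeR adjusted p = 0.0446), with the cKO libraries above every WT library at E16.5 and below every WT library at P21. For Kcnn1 the difference was -0.86 (edgeR adjusted p = 0.0446), with the same order of the libraries at both ages. Among 106 genes tested, both lay close to the threshold, and each lost its call in 11 of 16 alternatives, as given under the dependence on processing.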

How the results depend on the processing

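At P21 the count of higher channel genes, 1, was 2 under upper-quartile scaling, 3 with DESeq2, 4 with no filter on low counts, 2 with a filter at 5 CPM, 0 in 1 fit of all 10 libraries and 0 to 8 with 1 library left out. The count of lower genes, 7, was 11 with no filter, 3 in the 10-library fit and 4 to 18 with 1 library left out. The median log2 change was -0.090 under upper-quartile scaling and -0.17 to -0.077 with 1 library left out. At E16.5, where none was called, DESeq2 called 4 higher and 7 lower, and no filter and the 10-library fit each called 1 and 1. With 1 library left out the count stayed at 0. The 2 genes whose effect differed between ages became 0 under upper-quartile scaling, 4 with DESeq2 and 4 with no filter. In the other direction DESeq2 gave 1. Leaving out 1 library also moved both counts. Both genes lost the call without the E16.5 libraries rich in choroid plexus RNA, an alternative chosen after seeing the data. That fit had WT replicate 3 as its only WT library at E16.5. Partner genes at P21 gave 2 higher with DESeq2, 5 lower under upper-quartile scaling, and 0 to 3 higher and 1 to 13 lower with 1 library left out. At E16.5 DESeq2 gave 1 and 7. Arid1a at E16.5 was -0.64 with a sex covariate (edgeR adjusted p = 0.120) and -0.67 to -0.61 with 1 library left out. Without the choroid-rich libraries it was -0.68, from WT replicate 3 alone against cKO replicates 1 and 2. With the cKO list cut to as many H3K27me3 peaks as in WT, 36 channel genes had a peak and 27 in cKO only.

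The replicate block gave 1 higher and 7 lower at P21, of which 6 were among the 8 called without it. Kcnt1 lost its call (edgeR adjusted p = 0.0704) and Kcng1 gained one (0.00296). It gave 0 at E16.5, 0 for the difference between ages (edgeR adjusted p = 0.176 for Kcng1 and 0.248 for Kcnn1), 3 lower partner genes and Arid1a at E16.5 of -0.64 (edgeR adjusted p = 0.370). Same-numbered libraries correlated at 0.0198 at P21 and at -0.228, -0.0208 and -0.492 at E16.5, and not every library correlated best with its own number. Replicate numbers moved with Xist counts: at P21 replicate 1 had 37 and 21 counts and replicate 2 had 4914 and 3572, and at E16.5 replicate 3 of either genotype was the low one (7 and 10).

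Among the single genes named, the sign turned for Kcnh7 at P21, whose log2 change ran from -0.55 to 0.037 with 1 library left out and was positive without WT replicate 2. The cause of these changes was not tested. ChIP-seq has 1 library per mark and genotype, which limits every peak count.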
